A study of Mus musculus with 21 samples.

Results

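The genes described are 40 motile cilium genes, chosen by symbol for their known role: 5 regulators, 6 genes of the axonemal ruler, nexin link and arm docking, 5 outer arm and 7 inner arm dynein chains, 2 dynein assembly factors, 3 radial spoke genes, 4 central apparatus genes, and 8 tektins and other axonemal genes. The epithelial tables listed 39 of the 40 among 23869 genes (Mcidas is not listed there). The fibroblast tables listed 30 of the 40 among 21170 genes.

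Motile cilia beat because dynein motors slide the microtubule doublets of the axoneme past each other, while nexin links, radial spokes and the central apparatus turn the sliding into a regular bend. In the airways they are built by multiciliated epithelial cells, whose programme is switched on by Mcidas and carried out by the transcription factors Foxj1 and Rfx2/Rfx3.

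Lung cells were sorted from mice of the C57BL/6 strain that all carried Col1a2-GFP, a transgene whose green fluorescence labels collagen-producing cells, and were profiled by 3'SAGE-seq, which counts 1 tag per polyadenylated transcript, taken close to its 3' end. Epithelial cells were Epcam-positive and fibroblasts GFP-positive and Epcam-negative, both after removal of cells carrying CD31, CD45, Ter119 or CD146. The protocol sorts epithelium as GFP-negative, but the E18.5 epithelial label names no GFP gate. The groups were embryonic day 18.5 (E18.5) and postnatal days 0.5, 2, 7 and 28 (P0.5 to P28), with no treatment named, and with 2 libraries per group in each cell type, plus 1 fibroblast library at P56. No label names separate animals, so the p-values measure the spread between these libraries, which may be technical.

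The epithelial libraries held 2282124 to 5602529 recovered reads, and the fibroblast libraries 2146071 to 5729829. All levels below are the deposited normalised values unless joint CPM is named, and 3 reads, the most that a count of 0 allows, correspond to 0.560 to 1.37 value units in an epithelial library. Of the 39 listed members, 35 reached 3 value units in 2 epithelial libraries or more and were tested; Ccdc113, Rsph1, Spag6 and Tekt4 were not. No member passed this filter only through the E18.5 libraries. Stages were compared with limma on log2(value + 1), with Benjamini-Hochberg adjustment over all 12143 genes tested and a threshold of 0.05, and "rose" or "fell" is used for changes that passed it. The epithelial sort holds all Epcam-positive types, and alveolar type 2 markers were abundant throughout (10 genes summing to 8769 to 31193), so in these bulk libraries fewer ciliated cells and less RNA per ciliated cell cannot be told apart.

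RFX factors bind a DNA motif known as the X-box, and the promoters below show how its core lies before 2 members that fell from E18.5 to P7, beside 1 that fell without it. The sequences are the 120 bases before the transcription start, from RefSeq (GRCm38.p6), 5' to 3' on the gene's strand, with the X-box core GTTGCC, searched on both strands (GGCAAC on the other), in capitals. Tekt2 is at chr4:126325689-126325808 (minus strand), Hydin at chr8:110266857-110266976 (plus strand) and Ccdc40 at chr11:119228452-119228571 (plus strand).
Tekt2: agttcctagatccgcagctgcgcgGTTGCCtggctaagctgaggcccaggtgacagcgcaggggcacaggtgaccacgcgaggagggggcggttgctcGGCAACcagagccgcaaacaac
Hydin: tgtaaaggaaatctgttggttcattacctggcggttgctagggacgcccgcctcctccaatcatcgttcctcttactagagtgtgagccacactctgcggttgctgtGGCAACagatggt
Ccdc40: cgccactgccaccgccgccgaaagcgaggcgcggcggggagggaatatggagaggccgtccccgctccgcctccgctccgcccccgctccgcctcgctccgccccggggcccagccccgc
Tekt2 holds this core 96 and 22 bases before its start and Hydin 13 bases before its start, while Ccdc40 holds none in these 120 bases. Windows of 250 bases before the start were matched for 34 of the 40 members (Foxj1 has none in the table used). The core occurred in 14 of the 34 (41.2%), against 2833 of 27025 windows of all genes (10.5%). Within 40 bases of the start, a distance chosen after the positions had been seen, 9 of the 34 members (26.5%) and 553 of all windows (2.05%) held it. The longer paired X-box, GTNNCC and GGNNAC with a short gap, occurred before 3 of the 34 members (8.82%), against 2.87% of all windows. Neither Tekt2 nor Hydin held it. The forkhead core GTAAACA, searched on both strands, occurred before 1 member, Ak7 (2.94%), against 3.09% of all windows. These matches describe letters in the sequence and were not measured as binding.

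The members were at their highest before birth, lowest around P7, and partly back up at P28. The stage mean was highest at E18.5 for 36 of the 39 listed members, against 23.6% of all genes tested, and lowest at P7 for 26 of them, against 15.7% of all genes. The exceptions at the top were Tppp3 and Spag6, highest at P0.5, and Ccno, highest at P7. As a percentage of the E18.5 mean, the median listed member stood at 42.0% at P0.5, 22.5% at P7 and 51.8% at P28, where the median of all genes tested was 97.5%, 102% and 101%. Single members ranged from 1.41% (Dnali1) to 103% (Ccno) at P7 and from 15.9% (Rsph4a) to 103% (Tppp3) at P28.

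**Figure D1:**
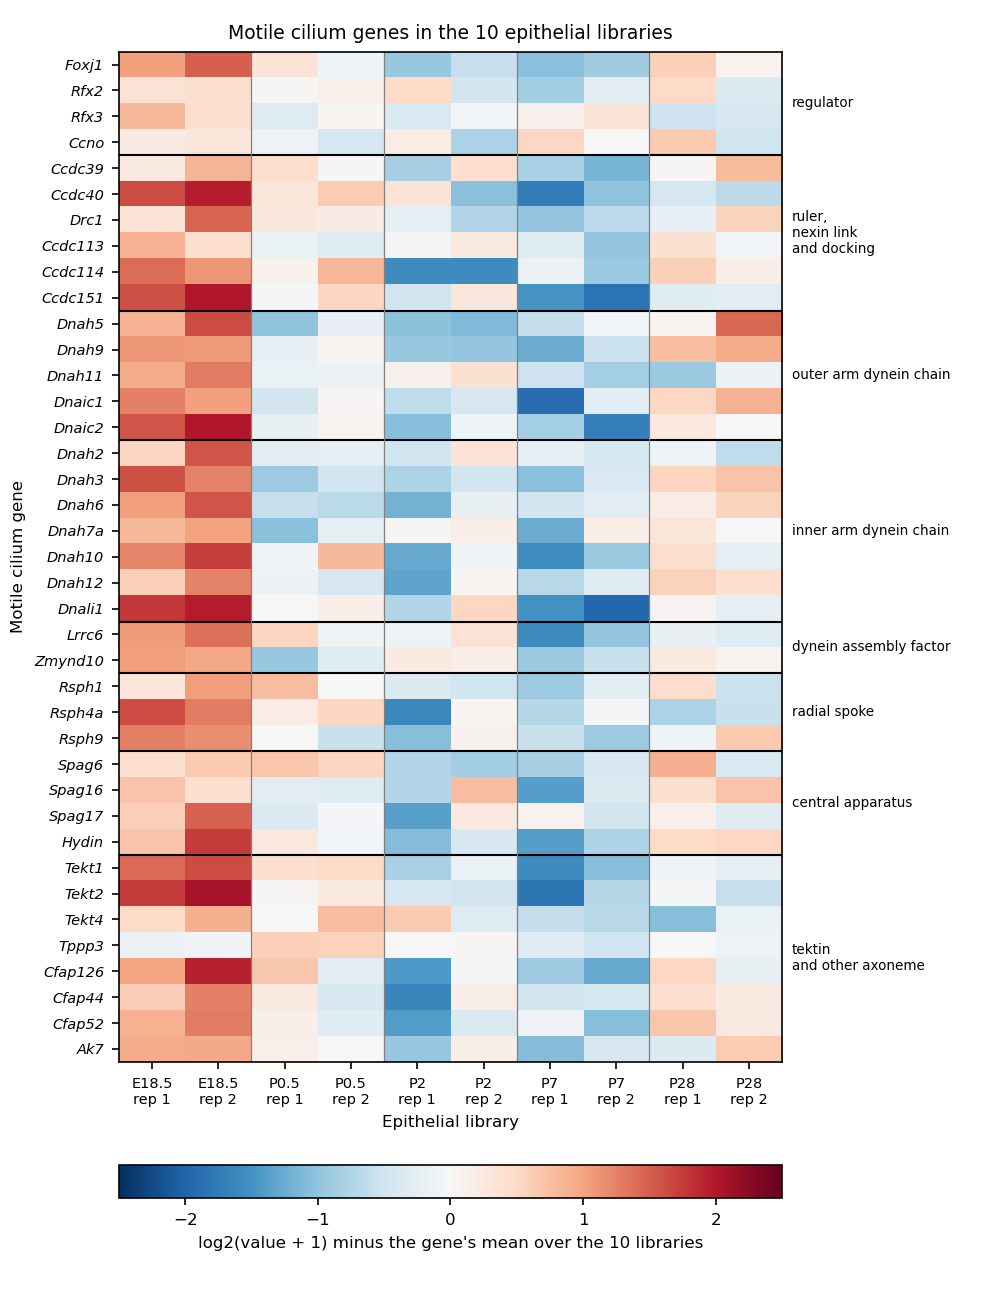
Colour gives log2(value + 1) minus the gene's own mean over the 10 epithelial libraries, for the 39 listed motile cilium genes (rows, grouped by role) in each library (columns, ordered by stage). The E18.5 columns are the highest for most rows and the P7 columns the lowest, while the rows of Ccno and Tppp3 do not follow that order.

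Between E18.5 and P7, 29 of the 35 tested members fell and none rose (limma, Benjamini-Hochberg), where 9.82% of all genes tested fell and 10.6% rose. The median change over the 35 was -1.79 on the log2 scale, against 0.04 over all genes. The fall touched every role: 1 of 4 tested regulators, 5 of 5 ruler, nexin and docking genes, 5 of 5 outer arm chains, 7 of 7 inner arm chains, both assembly factors, both tested radial spoke genes, 1 of 3 central apparatus genes and 6 of 7 tektins and other axonemal genes. Both E18.5 libraries lay above both P7 libraries for 38 of the 39 listed members, Ccno being the exception, against 28.1% of all genes tested. Of the 19 members with a mean of at least 10 over the 10 libraries, 16 fell. Without E18.5 replicate 2 or without P7 replicate 1 the count was 19.

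A large share of the fall was in place by P0.5. From E18.5 to P0.5, 15 of 35 members fell and 1, Tppp3, rose, where 7.09% of all genes tested fell and 7.24% rose, and the median member changed by -1.16 against -0.02 over all genes. The fallers included 4 of 5 outer arm chains, 4 of 7 inner arm chains, Foxj1, Ccdc40, Ccdc151, Zmynd10, Rsph9, Tekt1 and Tekt2. The count of 15 was not stable to the loss of 1 library. Leaving out any 1 of the 4 lowered it, as it lowered the number of calls over all genes tested, though in some fits by a larger share. The median member change in these fits ranged from -1.38 (without E18.5 replicate 1) to -0.96 (without E18.5 replicate 2). Both E18.5 libraries lay above both P0.5 libraries for 34 of the 39 listed members, against 29.6% of all genes tested.

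Fewer changes passed the test in the next intervals. From P0.5 to P2, Foxj1, Ccdc114, Tekt1 and Tppp3 fell and none rose (4 of 35, median -0.44), where 3.69% of all genes tested fell and 5.13% rose (median 0.03). From P2 to P7, Ccdc151 and Lrrc6 fell and none rose (2 of 35, median -0.35), where 2.17% fell and 1.55% rose (median 0.01). Leaving out 1 library lowered both counts in most fits, in some to none, and it lowered the number of calls over all genes tested as well. The median member change in these fits ranged from -0.73 to -0.06 for P0.5 to P2 and from -0.67 to 0.01 for P2 to P7.

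From P7 to P28, 8 of 35 members rose and none fell, where 4.87% of all genes tested rose and 2.41% fell. The risers were Foxj1, Ccdc39, Ccdc151, Dnah9, Dnaic1, Dnah3, Hydin and Tekt1, by 1.16 to 1.78 on the log2 scale, and the median over all 35 was 1.0 against -0.03 over all genes. Both P28 libraries lay above both P7 libraries for 29 of the 39 listed members, against 23.4% of all genes tested. Leaving out any 1 library lowered the count of 8 risers, in most fits to few. It lowered the number of calls over all genes tested as well, but in most fits by a smaller share. The count of 8 was thus not stable to the loss of 1 library. The median member change in these fits ranged from 0.82 (without P7 replicate 1) to 1.18 (without P7 replicate 2).

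At P28 some members were still below E18.5. From E18.5 to P28, 13 of 35 were still lower and none higher, where 11.3% of all genes tested were lower and 13.5% higher: Foxj1, Rfx3, Ccdc40, Ccdc151, Dnah11, Dnaic2, Dnah2, Dnah6, Dnali1, Lrrc6, Rsph4a, Tekt1 and Tekt2. The median change over the 35 was -0.87, against 0.03 over all genes. The count was 7 without P28 replicate 2. Both E18.5 libraries lay above both P28 libraries for 30 of the 39 listed members (29.0% of all genes tested), the tested exceptions being Rfx2, Ccno, Ccdc39, Drc1, Dnah5, Spag16 and Tppp3. The plot of changes with their standard errors sets the fall and the later rise side by side.

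**Figure D2:**
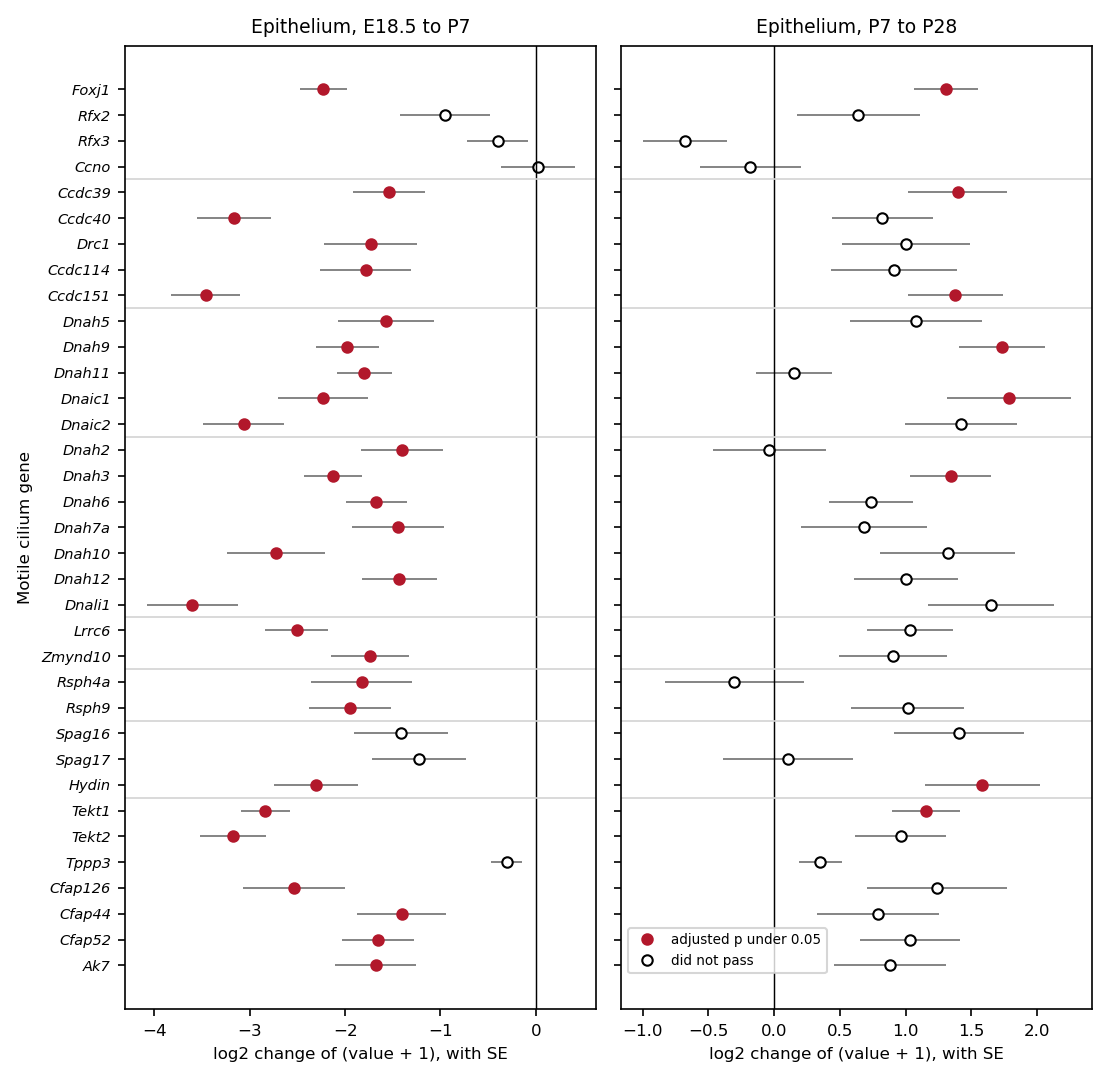
Each point is 1 of the 35 tested members, with its log2 change and standard error from E18.5 to P7 (left) and from P7 to P28 (right); filled red points passed an adjusted p of 0.05. In the left panel 29 points passed, all below 0, and in the right panel 8 passed, all above 0.

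Of the 4 listed regulators, Foxj1 was the one that fell from E18.5 to P7 and rose again by P28. Foxj1 (chr11:116330704-116335399 on GRCm38, minus strand), the forkhead factor that switches on motile cilium genes, stood at 160 and 221 at E18.5, 96.9 and 73.0 at P0.5, 39.7 and 52.1 at P2, 37.4 and 41.4 at P7, and 119 and 82.4 at P28. Both E18.5 libraries lay above all others, and both P28 libraries lay above all P2 and P7 libraries. Its level fell by 2.23 ± 0.24 (SE) on the log2 scale from E18.5 to P7 (adjusted p = 3.11e-05), rose by 1.31 ± 0.24 from P7 to P28 (adjusted p = 0.0036) and differed by -0.92 ± 0.24 between E18.5 and P28 (adjusted p = 0.0132).

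The RFX factors bind X-box motifs in ciliary promoters and also serve primary cilia. Rfx3 was at 18.8 and 14.2 at E18.5, 8.08 and 10.7 at P0.5, 7.75 and 9.89 at P2, 11.2 and 13.1 at P7, and 6.95 and 7.49 at P28. Its E18.5 libraries were the 2 highest and its P28 libraries the 2 lowest. The change from E18.5 to P28 passed the test (-1.08 ± 0.32, adjusted p = 0.0241), and that from E18.5 to P7 did not (-0.40 ± 0.32, adjusted p = 0.434). Rfx2 was low throughout, at 4.87 and 5.05 at E18.5, 3.67 and 3.96 at P0.5, 5.47 and 2.31 at P2, 1.49 and 2.80 at P7, and 5.41 and 2.59 at P28. Its E18.5 libraries lay above those of P0.5 and P7, while its P2 and P28 libraries overlapped other stages. No change of Rfx2 passed the test.

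Ccno, a cyclin-like protein needed to amplify centrioles into basal bodies, did not share the pattern. Its values were 26.6 and 28.1 at E18.5, 20.9 and 17 at P0.5, 26.4 and 12.9 at P2, 33.6 and 22.9 at P7, and 36.7 and 16.1 at P28. Replicates from P2 onwards differed as much as stages did, and its change from E18.5 to P7 was 0.02 ± 0.38 (adjusted p = 0.98). With a standard error of that size, a moderate change was not detectable here.

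**Figure D3:**
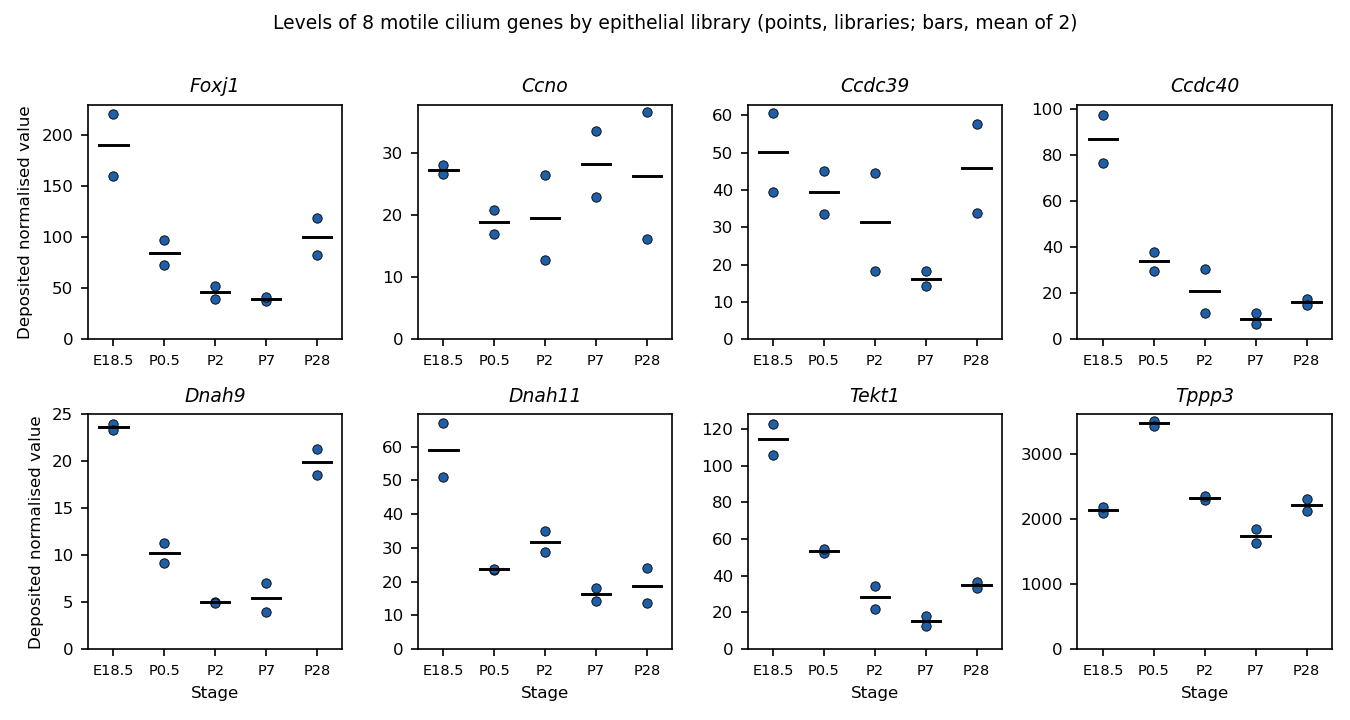
Deposited normalised value in each epithelial library (points, 2 per stage) for Foxj1, Ccno, Ccdc39, Ccdc40, Dnah9, Dnah11, Tekt1 and Tppp3, each on its own axis. Foxj1, Ccdc39 and Tekt1 have their lowest mean at P7 and Dnah9 at P2, all 4 rise from P7 to P28, Ccdc40 and Dnah11 stay low at P28, and Ccno and Tppp3 follow other courses.

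Ccdc39 and Ccdc40 form one complex, the molecular ruler that sets the spacing of inner arms and nexin links along the doublet, and are set side by side here. Ccdc39 stood at 39.6 and 60.6 at E18.5, 45.2 and 33.7 at P0.5, 18.2 and 44.5 at P2, 18.3 and 14.3 at P7, and 34 and 57.6 at P28. Ccdc40 stood at 76.2 and 97.2 at E18.5, 29.7 and 37.9 at P0.5, 30.5 and 11.2 at P2, 6.54 and 11.5 at P7, and 17.4 and 15 at P28. The E18.5 and P28 libraries overlapped for Ccdc39 and were far apart for Ccdc40. From E18.5 to P28 the change was -0.14 ± 0.38 for Ccdc39 (adjusted p = 0.828) and -2.35 ± 0.38 for Ccdc40 (adjusted p = 0.000495). The difference between the 2 genes was not tested. Both fell from E18.5 to P7, Ccdc39 by 1.54 ± 0.38 (adjusted p = 0.01) and Ccdc40 by 3.17 ± 0.38 (adjusted p = 7.04e-05).

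Ccdc151 and Ccdc114 help dock the outer arms to the doublet. Ccdc151 was at 34.4 and 45.4 at E18.5, 10.3 and 15.8 at P0.5, 7.29 and 13.2 at P2, 3.18 and 2.24 at P7, and 8.50 and 8.64 at P28. It fell from E18.5 to P0.5 and again from P2 to P7, with the change from E18.5 to P7 at -3.46 ± 0.36 (adjusted p = 2.15e-05), and rose by 1.38 ± 0.36 from P7 to P28 (adjusted p = 0.0304). Ccdc114 had no read in either P2 library. Against 3 reads over that group, its level was at least 5.85-fold higher at P0.5 (21 reads) and at least 2.15-fold higher at P7 (11 reads). The nexin link gene Drc1 fell from E18.5 to P7 by 1.73 ± 0.49 (adjusted p = 0.0211), and Ccdc113 ranged from 0 to 2.59 and was not tested.

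The outer arm heavy chains Dnah5, Dnah9 and Dnah11 supply most of the power of the beat, and Dnaic1 and Dnaic2 are their intermediate chains. Dnah9 was at 24.0 and 23.4 at E18.5, 9.18 and 11.3 at P0.5, 5.01 and 4.94 at P2, 3.92 and 6.99 at P7, and 18.5 and 21.3 at P28. Dnah11 was at 50.9 and 66.9 at E18.5, 23.5 and 23.8 at P0.5, 28.7 and 34.9 at P2, 18.1 and 14.3 at P7, and 13.5 and 23.9 at P28. The P28 libraries of Dnah9 were close to its E18.5 libraries, whereas those of Dnah11 overlapped its P7 libraries. Dnah9 fell by 1.98 ± 0.33 from E18.5 to P7 (adjusted p = 0.000824) and rose by 1.73 ± 0.33 to P28 (adjusted p = 0.00384). Dnah11 fell by 1.80 ± 0.29 (adjusted p = 0.000646), and its later change of 0.15 ± 0.29 did not pass the test (adjusted p = 0.858).

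Dnaic2 stood at 22.4 and 30.3 at E18.5, 5.88 and 7.35 at P0.5, 2.73 and 6.26 at P2, 3.36 and 1.4 at P7, and 8.50 and 6.91 at P28. Every later library was below both E18.5 libraries, with a change of -3.06 ± 0.43 by P7 (adjusted p = 0.00021). Dnaic1 fell by 2.23 ± 0.47 by P7 (adjusted p = 0.00414) and rose by 1.78 ± 0.47 by P28 (adjusted p = 0.032). Dnah5 fell by 1.57 ± 0.50 by P7 (adjusted p = 0.0396), with values of 1.65 to 1.82 at P2 and of 5.02 and 14.4 at P28.

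The inner arm chains shape the bend, and 4 of the 7 fell within the first interval, Dnah3 and Dnah6 among them. Dnah3 was at 58.7 and 46.1 at E18.5, 9.55 and 13.3 at P0.5, 10.5 and 13.5 at P2, 8.59 and 14.3 at P7, and 27.8 and 31.7 at P28. Dnah6 was at 52.5 and 76.4 at E18.5, 16.5 and 15.3 at P0.5, 10.5 and 21.8 at P2, 17.7 and 20.7 at P7, and 28.6 and 37.2 at P28. In both genes every P0.5, P2 and P7 library lay below both P28 libraries, and these lay below both E18.5 libraries. From E18.5 to P0.5, Dnah3 fell by 2.11 ± 0.30 (adjusted p = 0.000717) and Dnah6 by 1.93 ± 0.32 (adjusted p = 0.00172). These were the only 2 of the 16 calls in that interval that held under every alternative setting run.

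Dnah12 stood at 25.3 and 40.1 at E18.5, 14.7 and 11.9 at P0.5, 5.93 and 16.8 at P2, 9.71 and 12.9 at P7, and 24.7 and 22.2 at P28. It fell by 1.43 ± 0.39 from E18.5 to P7 (adjusted p = 0.0193), and its P28 libraries lay just below the lower E18.5 library. Dnali1, an inner arm light intermediate chain, went furthest: 12.3 and 14.2 at E18.5 against 0.374 and 0 at P7, where the 2 libraries together held 2 reads. The ratio of E18.5 to P7 was 59.3, with an exact 95% counting interval of 15.9 to 498. Dnah2, Dnah7a and Dnah10 also fell from E18.5 to P7, by 1.4 to 2.72. Dnah7a shares most of its sequence with Dnah7b and Dnah7c, so the split of tags among the 3 is uncertain.

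Lrrc6 and Zmynd10 assemble dynein arms in the cytoplasm before they enter the cilium. Lrrc6 stood at 33.4 and 41.7 at E18.5, 22.8 and 14.1 at P0.5, 14.1 and 20.1 at P2, 4.48 and 7.27 at P7, and 13.5 and 12.1 at P28. It was 1 of the 2 members that fell between P2 and P7 (-1.41 ± 0.33, adjusted p = 0.0304). Zmynd10 stood at 8.76 and 8.21 at E18.5, 1.47 and 2.83 at P0.5, 4.56 and 4.28 at P2, 1.49 and 2.24 at P7, and 4.63 and 4.03 at P28. Its level fell by 1.62 ± 0.41 by P0.5 (adjusted p = 0.0172), and the P2 and P28 libraries lay above those of P0.5 and P7 without a change between neighbouring stages that passed the test.

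The radial spokes carry signals from the central apparatus to the dynein arms. Rsph9 was at 22.4 and 20.8 at E18.5, 8.81 and 5.66 at P0.5, 3.65 and 9.56 at P2, 5.60 and 4.20 at P7, and 8.11 and 14.4 at P28. Rsph4a was at 12.7 and 9.78 at E18.5, 4.04 and 5.37 at P0.5, 0.456 and 3.63 at P2, 1.68 and 3.36 at P7, and 1.54 and 2.02 at P28. Both E18.5 libraries stood above all later ones in each gene, and the P28 libraries of Rsph4a overlapped its P7 libraries. From E18.5 to P7, Rsph9 fell by 1.95 ± 0.43 (adjusted p = 0.00534) and Rsph4a by 1.83 ± 0.53 (adjusted p = 0.0241). Rsph1 ranged from 0 to 2.84 over the 10 libraries and was not tested.

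Hydin was the only 1 of the 3 tested central apparatus genes to pass the test from E18.5 to P7. Hydin stood at 10.4 and 22.4 at E18.5, 7.34 and 5.66 at P0.5, 2.28 and 4.28 at P2, 1.68 and 3.08 at P7, and 8.88 and 8.93 at P28. It fell by 2.30 ± 0.44 to P7 (adjusted p = 0.00208) and rose by 1.58 ± 0.44 to P28 (adjusted p = 0.0409). Spag17 was at 11.7 and 22.1 at E18.5, 5.51 and 7.07 at P0.5, 2.28 and 8.90 at P2, 7.84 and 5.04 at P7, and 8.11 and 5.76 at P28. Spag16 was at 10.4 and 8.21 at E18.5, 4.77 and 4.52 at P0.5, 3.19 and 10.9 at P2, 1.68 and 4.48 at P7, and 8.11 and 10.4 at P28. Both had lower P7 than E18.5 values in both libraries, but the changes of -1.23 ± 0.49 for Spag17 (adjusted p = 0.0994) and -1.42 ± 0.49 for Spag16 (adjusted p = 0.0574) did not pass. Spag6, which has a close copy in Spag6l, ranged from 0.330 to 3.48 and was not tested.

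Tektins are filaments inside the doublet wall. Tekt1 stood at 106 and 122 at E18.5, 52.1 and 54.6 at P0.5, 21.9 and 34.6 at P2, 12.5 and 18.2 at P7, and 36.7 and 33.1 at P28. Its replicates were close, and each stage from E18.5 to P7 lay wholly below the one before. Tekt1 fell by 2.84 ± 0.26 from E18.5 to P7 (adjusted p = 8.41e-06), the smallest adjusted p of any member in that comparison, and rose by 1.16 ± 0.26 to P28 (adjusted p = 0.0122). Tekt2 fell by 3.17 ± 0.35 to P7 (adjusted p = 2.87e-05), while its later change of 0.96 ± 0.35 did not pass (adjusted p = 0.126). Tekt4 was at or below 2.84 in every library.

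Cfap52, a protein of the doublet lumen, stood at 45.7 and 60.9 at E18.5, 27.2 and 19.5 at P0.5, 8.66 and 18.8 at P2, 23.0 and 11.2 at P7, and 40.2 and 28.8 at P28. It fell by 1.65 ± 0.38 to P7 (adjusted p = 0.00717), with P2 and P7 libraries that overlapped. Cfap44, Cfap126 and Ak7 fell over the same interval by 1.41 to 2.54.

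Tppp3, a tubulin-binding protein often used as a ciliated cell marker, had far more reads than the other members and another course. It stood at 2086 and 2180 at E18.5, 3507 and 3429 at P0.5, 2287 and 2343 at P2, 1836 and 1623 at P7, and 2296 and 2112 at P28. The P0.5 libraries lay above all others, the P2 and P28 libraries near those of E18.5, and the P7 libraries below all others. Tppp3 rose by 0.70 ± 0.16 from E18.5 to P0.5 (adjusted p = 0.0118) and fell by 0.58 ± 0.16 from P0.5 to P2 (adjusted p = 0.0414), and its change from E18.5 to P7 was -0.30 ± 0.16 (adjusted p = 0.221).

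As a description over the 10 libraries, which share stage and depth, the Pearson correlation of a member's log2(value + 1) with the mean of the other tested members was 0.96 for Dnaic2 and for Foxj1 and 0.02 for Ccno, 0.11 for Tppp3, 0.42 for Rfx3 and 0.51 for Rfx2. Outside the list, the gene with the profile most like the members' mean was Dnajb13, a radial spoke protein (r = 0.99 over 10 libraries), with stage means of 287, 52.2, 40.5, 20.7 and 61.1. It was followed by Foxn4 (r = 0.98), a forkhead factor of multiciliated cells, Ccdc162 and Morn5 (r = 0.97 each) and Lrrc43 and Cfap46 (r = 0.96 each). Of the 15 genes ranked highest, 5 stood on the pathway lists described next (Foxn4, Morn5, Cfap46, Cfap69 and Dnah7b), against 59 of the 8097 genes ranked.

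Of 17 listed regulators of multiciliation outside the members, 14 were tested, and 7 fell and none rose from E18.5 to P0.5 (median -0.87), where 7.09% of all genes tested fell. Ccdc67, the tables' symbol for the deuterosome protein Deup1, was at 26.6 and 32.8 at E18.5 and 1.47 and 0.848 at P0.5, a change of -3.84. Cdc20b, which frees centrioles from the deuterosome, changed by -3.59, Foxn4 by -2.29 and Tfdp1 by -1.20. From E18.5 to P7, 6 of the 14 fell, where 9.82% of all genes tested fell, and 1, E2f4, rose by 1.41. Cdc20b had no read at P7, and its E18.5 level (106 reads) was at least 50.5-fold higher. Foxn4 had 1 read at P7, a ratio of E18.5 to P7 of 220 with a counting interval of 38.9 to 8743, and it rose by 2.08 on the fitted scale from P7 to P28.

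Of 95 other motile axoneme genes listed, 64 were tested. From E18.5 to P7, 33 fell and none rose (median -1.52), where 9.82% of all genes tested fell, and 31 did not pass the test. The fallers included Morn5 (-3.06), Armc4 (-2.82), Dnah7b (-2.57) and Wdr78 (-1.91). From P7 to P28, 12 of the 64 rose and none fell (median 0.93), where 4.87% of all genes tested rose, including Mns1 by 2.57, Cdhr3 by 1.90, Morn5 by 1.5 and Dnah7b by 1.34. Of 30 intraflagellar transport genes, which primary cilia use as well, 25 were tested. From E18.5 to P7, 6 fell and none rose (median -0.58, against 9.82% of all genes tested that fell), with Traf3ip1 at -1.95, Ift22 at -1.26, Ift46 at -1.09 and Ift43 at -0.81. From P7 to P28, 2 of the 25 rose, Ift57 by 1.69 and Ift22 by 1.20, a share near the 4.87% of all genes tested. Differences between the lists were not tested.

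Airway markers were summed by library to set them beside the members. The 38 listed cilium genes without Tppp3 summed to 1069 and 1357 at E18.5, 520 and 488 at P0.5, 309 and 440 at P2, 271 and 295 at P7, and 583 and 556 at P28. A list of 7 genes chosen as airway epithelial and shared by club and ciliated cells, most of it Krt19 and Cldn10, summed to 8654 and 8774 at E18.5, 4303 and 4306 at P0.5, 2461 and 2500 at P2, 1217 and 1249 at P7, and 1377 and 1101 at P28. Krt19 alone held most of this sum (6971 and 7260 at E18.5), so the sum mainly follows that gene and is no measure of airway cells. The sum of the list was lower at each stage up to P7, as that of the cilium genes was. From E18.5 to P7, 2 of its 6 tested genes fell, where 9.82% of all genes tested fell. Elf3 (8.76 and 6.00 at E18.5, 9.53 and 7.55 at P7) and Foxa1 (8.11 and 4.73, then 10.5 and 8.39) were not lower at P7. All 7 were above 0 in some library, and Sox2 stayed between 0 and 3.79. The 12 club and secretory markers summed to 213 and 222 at E18.5, 610 and 591 at P7 and 6788 and 8826 at P28. Most of the higher P7 sum was Scgb1a1 (54.5 and 61.5 at E18.5, 341 and 412 at P7). Cyp2f2 was nearly level (126 and 113, then 107 and 151) and Muc5b was lower at P7 (8.76 and 16.1, then 3.92 and 5.60). From P7 to P28 this sum rose, as the cilium sum did, and 7 of its 9 tested genes rose, where 4.87% of all genes tested rose. Of 6 basal markers, Krt5, Krt14 and Trp63 were at 0 in all 10 libraries, and the other 3, mostly Aqp3, brought the list to 12 and 15.8 at E18.5, 36.5 and 52.4 at P2, and 5.41 and 6.34 at P28. The 10 alveolar type 2 markers summed to 9241 and 8769 at E18.5, 24135 and 26890 at P7 and 31193 and 29201 at P28. The part of these shifts in the members' changes was not tested.

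**Figure D4:**
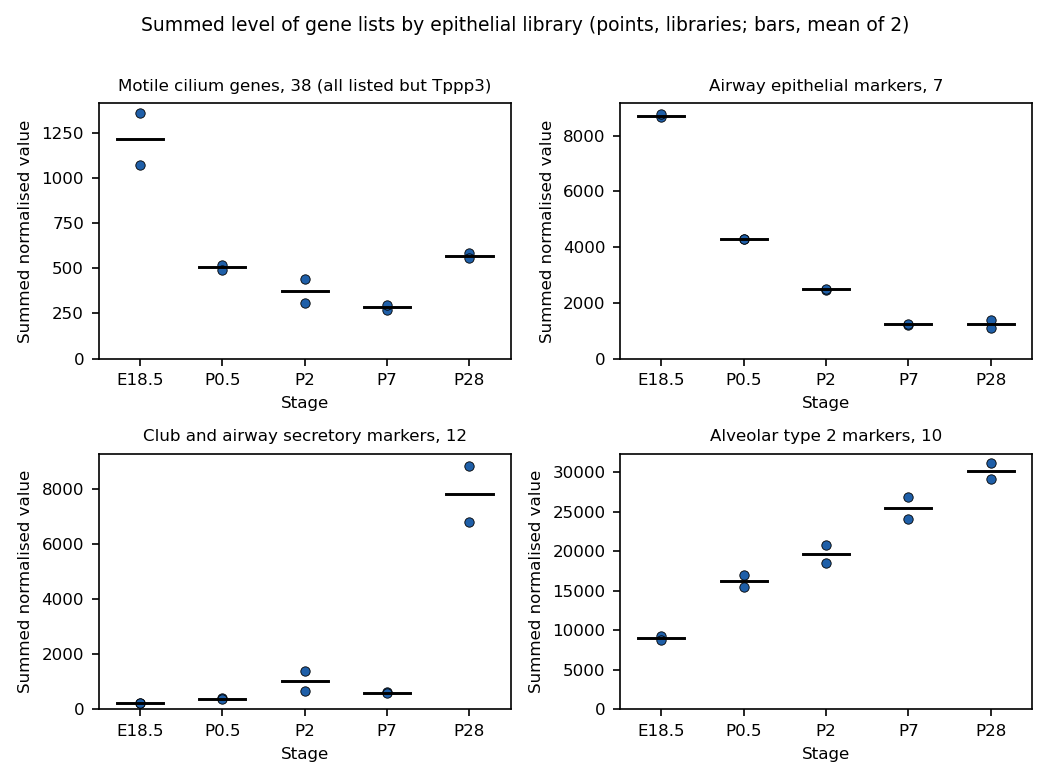
Summed deposited value per epithelial library (points, 2 per stage, linear axes) for 38 cilium genes without Tppp3, 7 airway epithelial genes, 12 club and secretory genes and 10 alveolar type 2 genes. The cilium sum falls from 1069 and 1357 at E18.5 to 271 and 295 at P7 and stands at 583 and 556 at P28, while the club sum is highest at P28 and the alveolar type 2 sum rises from birth.

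Markers of the remaining cell types varied between libraries as well. Summed leukocyte markers (8 genes) were 162 and 428 at E18.5, 5.04 and 0.560 at P7 and 1740 and 1679 at P28. Erythroid markers (6 genes) were 799 and 2878 at E18.5 and 55.5 and 304 at P7. Fibroblast markers (8 genes) stayed between 30.9 and 272 in the epithelium, 6 neuroendocrine markers between 39.2 and 103, and 10 alveolar type 1 markers between 3820 and 7781. Replicate 2 was the higher library for 26 of the 35 tested members at E18.5 and for 26 at P2. In both pairs it also had the higher club, leukocyte and erythroid sums, and the part of these in the members' values was not tested.

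Fibroblasts, which carry primary but not motile cilia, served as the background. Since each cell type's tables had their own normalisation, recovered reads were scaled together with TMM to joint CPM over the 20 libraries of the 5 shared stages. Of 28 members that passed the filter, 27 were higher in epithelium and none lower (limma, Benjamini-Hochberg), where 32.5% of all 13386 genes tested were higher and 29.9% lower. For 21 of the 28, however, the fibroblast libraries alone did not reach the filter (a joint CPM of 3 in 2 libraries), so that passing it through the epithelium largely fixed their direction, and their count is no support. The other 7 were Rfx3, Ccno, Ccdc39, Dnah12, Rsph9, Tekt1 and Tppp3, of which 6 were higher. Over the 30 members listed in both tables, filter or not, all 10 epithelial libraries exceeded all 10 fibroblast libraries for 17, against 9.54% of the 13386 genes that passed the filter. Of the 7 just named, only Ccno and Ccdc39 were among these 17, and Rfx3, Dnah12, Rsph9, Tekt1 and Tppp3 overlapped. Most of the 17 were members whose fibroblast libraries did not reach the filter, so this count is no separate support.

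Foxj1 ranged from 35.2 to 208 joint CPM in epithelium (median 75.1) and from 0 to 3.25 in fibroblasts (49 reads over 10 libraries), a difference of 4.99 ± 0.22 on the log2(joint CPM + 1) scale. Dnah11 (4.60 ± 0.18), Dnah6 (4.03 ± 0.22) and Ccdc40 (3.98 ± 0.24) followed; all 4 entered through the epithelium. Of those with enough fibroblast reads, Ccdc39 differed by 3.06 ± 0.18 (adjusted p = 1.81e-12), Tekt1 by 2.48 ± 0.15 (adjusted p = 1.98e-12) and Ccno by 1.82 ± 0.18 (adjusted p = 1.49e-08). Of the 30 members in both tables, 10 had 3 or fewer reads over the 10 fibroblast libraries, and 5 had reads in every one of them: Rfx3, Ccno, Rsph9, Tekt1 and Tppp3. Rfx3, with 256 fibroblast reads, was the member that did not pass (0.37 ± 0.17, adjusted p = 0.0634).

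**Figure D5:**
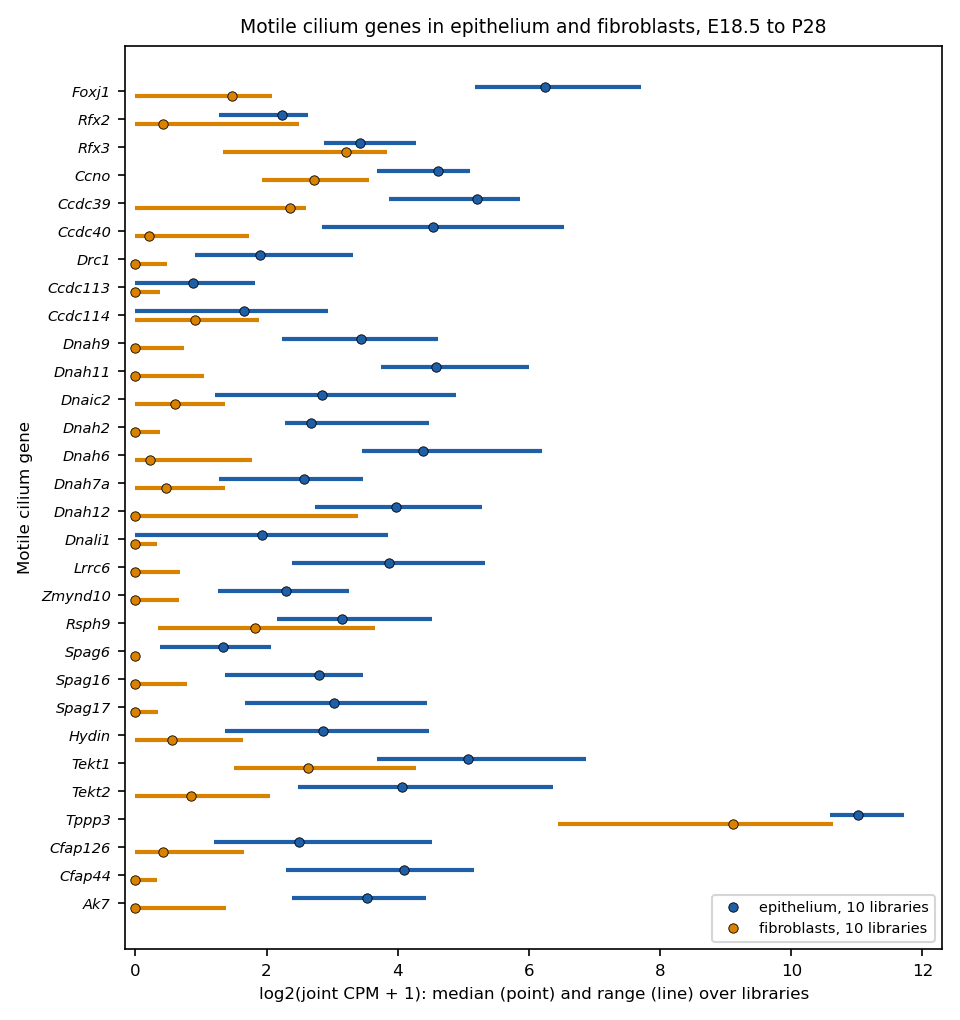
Level on the log2(joint CPM + 1) scale of the 30 members listed in both cell types: points are medians and lines the range over 10 epithelial and 10 fibroblast libraries. Foxj1 has a median of 75.1 joint CPM in epithelium and at most 3.25 in fibroblasts, while the ranges of Rfx3 and Tppp3 overlap between the cell types.

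Within fibroblasts 7 members could be tested from E18.5 to P28; 3 rose and 1 fell (median 0.13), where 18.7% of all genes tested rose and 14.9% fell (median 0.01). Tppp3 stood at 89.6 and 118 at E18.5, 1396 and 1654 at P0.5, 629 and 745 at P2, 293 and 248 at P7, 581 and 547 at P28, and 161 in the P56 library. It peaked at P0.5 here too, and its E18.5 libraries were the lowest of the 11, with a rise to P28 of 2.44 ± 0.19 (adjusted p = 1.12e-08). Dnah12 was at 0 in all 6 fibroblast libraries up to P2, 1.05 and 2.09 at P7, 9.74 and 4.79 at P28 and 0.134 at P56. It reached the filter only through the P28 libraries. The direction of its rise was thus fixed by the filter, and its place among the 3 risers is no support. Ccdc39 rose by 1.81 ± 0.48 (adjusted p = 0.00624), from 0.843 and 0 at E18.5 (3 reads) to 4.43 and 3.19. It was already at 4.41 and 5.24 at P0.5, and it stood at 1.75 in the P56 library. Tekt1 fell by 1.19 ± 0.45 (adjusted p = 0.0455), from 9.55 and 10.2 to 3.54 and 3.99. The Tekt1 call held under 4 of the 13 alternatives run, with adjusted p from 0.0336 to 0.155, and was lost without any 1 of the 4 libraries compared. Without fibroblast E18.5 replicate 2 or P28 replicate 1, 2 of the 4 calls were left.

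The change from E18.5 to P28 was then compared between the cell types in 1 model. It was lower in epithelium than in fibroblasts for 8 of 28 members and higher for none, where 9.85% of all 13386 genes tested were lower and 5.23% higher (limma, Benjamini-Hochberg). These were Rfx2, Ccdc39, Dnah11, Dnaic2, Dnah12, Dnali1, Tekt2 and Tppp3. Tppp3 was the 1 with many fibroblast reads, 596 at E18.5 and 3338 at P28, and the others had 0 to 5 at E18.5. Dnah11 and Dnali1 had no fibroblast read at either stage, so for these 2 of the 8 the test is of the epithelial fall alone. For 21 of the 28 members, Rfx2, Dnaic2, Dnah11, Dnali1 and Tekt2 among them, the fibroblast libraries alone did not reach the filter. For Dnah11, Dnaic2, Dnali1 and Tekt2 the epithelial change (-1.67 to -2.25) made up most or all of the difference, with fibroblast levels near the floor. For Rfx2, Ccdc39, Dnah12 and Tppp3 it was small (-0.34, -0.18, -0.47 and 0.01). Higher fibroblast levels at P28 made up most of the difference there (1.81, 1.81, 2.96 and 2.49). Apart from Tppp3, these fibroblast changes start from 0 to 3 reads at E18.5. The count of 8 is thus no separate support for the epithelial fall. Without epithelial or fibroblast E18.5 replicate 2 the count was 4, and without fibroblast P28 replicate 1 it was 5.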

How the data were processed

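Epithelial (10) and fibroblast (11) libraries were each deposited as 1 table per library of a normalised signal per gene, in a unit that the labels do not name. Per the submitters' processing notes, Bowtie2 2.2.5, R 3.4.0 and build mm10 were used; the normalisation and gene annotation are not given in the sources used here. Every deposited signal was a whole multiple of 1 constant per library, so whole reads were recovered for 100% of values (tolerance 0.01 of a read), giving 2146071 to 5729829 reads per library. Amplified reads carry no molecular identifiers, so floors (3 reads) and exact 95% intervals cover counting error only.

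The design foresaw edgeR for raw counts. The values are normalised, so log2(value + 1) was tested in limma 3.58.1 under R 4.3.3, with a trend of variance on mean,, for genes at 3 or more in at least 2 libraries, 2-sided, with Benjamini-Hochberg adjustment over all genes tested and a threshold of 0.05. This scale understates changes at low levels. Models held 1 mean for each stage, separately by cell type (5 residual degrees of freedom). The cell types were compared on joint CPM of recovered reads (TMM, 10 residual degrees of freedom). edgeR 4.0.16, run on the recovered reads as an alternative, called 2656 genes from E18.5 to P7 and 975 from P7 to P28, against 2478 and 884 with limma; DESeq2 1.42.0 was another. The limma fit was tested on simulated data.

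Values by library are given for the listed regulators and, in each other role, for up to 3 members with the highest epithelial mean. Pathway genes named are up to 4 called genes a comparison with the smallest p. Members and lists were chosen with earlier results of these data known. Gene positions are from the GENCODE annotation of GRCm38 and promoters from RefSeq (GRCm38.p6).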

Additional observations from a re-analysis of the deposited data

Results flagged for a closer look

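For 8 members the change from E18.5 to P28 differed between epithelium and fibroblasts by a test of the difference itself (limma, Benjamini-Hochberg), here given on the log2(joint CPM + 1) scale as the epithelial change minus the fibroblast change. Over the 28 members tested the median difference was -1.04 against -0.05 over all genes. For 21 of the 28 the fibroblast libraries alone did not reach the filter. This median therefore largely repeats the epithelial fall and is no separate support.

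Tppp3 differed most clearly: its epithelial change was 0.01 and its fibroblast change 2.49, a difference of -2.48 ± 0.23 (adjusted p = 2.71e-07). It was the member with the most fibroblast reads (596 at E18.5 and 3338 at P28). Dnah12, an inner arm heavy chain, changed by -0.47 in epithelium and 2.96 in fibroblasts, a difference of -3.42 ± 0.61 (adjusted p = 0.000515) with 0 and 45 fibroblast reads. For Tekt2, a tektin of the doublet wall, the difference was -3.28 ± 0.54 (adjusted p = 0.000226), from -2.25 in epithelium and 1.04 in fibroblasts, with 5 and 16 fibroblast reads.

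In the other 5, as for Tekt2, the fibroblast side rested on few reads. The difference was -2.80 ± 0.60 for the outer arm intermediate chain Dnaic2 (adjusted p = 0.0026; 0 fibroblast reads at E18.5 and 7 at P28), -2.15 ± 0.69 for Rfx2 (adjusted p = 0.0404; 0 and 19 reads) and -1.99 ± 0.57 for Ccdc39 (adjusted p = 0.0206; 3 and 23 reads). Dnah11 (-1.68 ± 0.56, adjusted p = 0.0465) and Dnali1 (-1.97 ± 0.56, adjusted p = 0.0213) had no fibroblast read at either stage, so their values are the epithelial change against a level below detection. The count was 4 without epithelial E18.5 replicate 2 or fibroblast E18.5 replicate 2, and 5 without fibroblast P28 replicate 1.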

How the results depend on the processing

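No member's call reversed under any alternative. Of 1850 checks of the 111 calls, 1604 kept the call and 246 lost it with the same sign. The 27 calls between cell types, kept in nearly every check, make up a large part of the 1850. The total therefore overstates how stable the calls between stages were. Calls kept under every alternative run numbered 2 of 16 (E18.5 to P0.5), 0 of 4 (P0.5 to P2), 0 of 2 (P2 to P7), 0 of 8 (P7 to P28), 16 of 29 (E18.5 to P7), 6 of 13 (E18.5 to P28), 2 of 4 (fibroblasts, with Dnah12, whose direction the filter fixed, as 1 of the 2), 26 of 27 (between cell types, where the filter largely fixed the direction of 21) and 4 of 8 (difference in change). Without a filter on low values, which adds genes to the adjustment, counts were 10, 0, 0 and 4 in the first 4 of these comparisons. With only the 2 groups compared, so fewer libraries, they were 0 from P0.5 to P2, 0 from P2 to P7 and 5 from P7 to P28. A pseudocount of 5 left 1 call from P2 to P7; the cause was not tested. The stricter filter, a value of 10, left 2 calls in fibroblasts because it tested only 3 members, and DESeq2 gave 5 calls for the difference in change; the cause was not tested. Without TMM factors the median of all genes in that difference moved from -0.05 to 0.13.

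Leaving out 1 library at a time gave 3 to 10 calls from E18.5 to P0.5, 0 to 4 from P0.5 to P2, 0 to 2 from P2 to P7, 1 to 6 from P7 to P28, 19 to 23 from E18.5 to P7, 7 to 11 from E18.5 to P28, 2 to 3 in fibroblasts, 27 to 28 between cell types and 4 to 8 for the difference in change. With the replicate block, the counts were 17, 4, 2, 8, 30, 14, 3, 27 and 8 in the same order; same-numbered libraries did not deviate together (correlations of -0.06 to 0.07 in epithelium and -0.04 to 0.04 in fibroblasts, none of the 10 pairs of groups above 0.1 in either), so the numbers do not pair the samples. In every comparison, leaving out 1 library lowered the number of calls over all genes too. From E18.5 to P0.5 and from P7 to P28, however, the member count fell by a larger share in several of these fits. The cause was not tested. Depth limits the low members: a level under 3 reads cannot be told from 0.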

Other observations

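The near-copies of Dnah7a on the pathway list had values in every epithelial library. Dnah7b, an inner arm heavy chain, stood at 63.6 and 75.4 at E18.5, 29.7 and 31.7 at P0.5, 20.5 and 28.7 at P2, 9.53 and 12.3 at P7, and 27.4 and 30.5 at P28. Dnah7c stood at 14.9 and 18.0 at E18.5, 4.30 and 3.92 at P7, and 6.18 and 10.9 at P28. All 3 copies had their highest values at E18.5, and no source here says how tags were split among them.

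Among the 15 genes with profiles most like the members' mean were also genes of general metabolism. Pgam1, a glycolytic enzyme, had stage means of 849, 272, 254, 227 and 342 from E18.5 to P28 (r = 0.94 over 10 libraries with the members' mean). Egln1, a prolyl hydroxylase that senses oxygen, had stage means of 127, 77.4, 72.1, 44.7 and 72.7 (r = 0.94). These correlations are descriptions over libraries that share stage and depth.

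The P56 fibroblast library, which entered no comparison between stages, held Rsph9 at 5.77, Rfx3 at 3.49, Tekt2 at 2.15, Ccdc39 at 1.75 and Hydin at 1.07, while 16 of the 30 listed members were at 0 there.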
